A study of Mus musculus with 3 samples.

Results

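Ifit1, Ifit2, Ifit3, Ifit3b, Oas1a, Oas2, Oas3, Oasl1, Oasl2 and Rsad2 are antiviral genes that type I interferon induces. They were chosen as a list of 10 gene symbols, and all 10 were found among the 33696 genes of the feature tables. The study profiled bone marrow of mice by droplet-based 3' single-cell RNA sequencing, with 1 library for each Fabp4 genotype. The wild-type library, the heterozygous knockout library and the homozygous knockout library each held cells of 2 mice mixed together, and no file assigns a cell to a mouse. The series is titled as a study of leukaemia stem cells, and the labels do not say whether the marrow carried leukaemia. Strain, age, treatment and the deleted part of Fabp4 are also not given in the sources used here.

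Fabp4, which encodes a fatty acid binding protein and is the gene the mice lack, was sparse in every library. The wild-type cells held 50 Fabp4 UMIs, or 0.745 counts per 1e+06 UMIs of the library (CPM; 95% counting interval 0.553 to 0.982). The heterozygous cells held 38 UMIs (0.521 CPM, 0.369 to 0.716), and the homozygous cells held 5 (0.108 CPM, 0.0352 to 0.253). The homozygous interval lay below the other two, and a residual 3' read cannot be placed inside or outside the deleted part.

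The Ifit genes encode proteins with tetratricopeptide repeats that bind viral RNA or each other and block its translation. The Oas enzymes sense double-stranded RNA and make short chains of oligoadenylate, which trigger the breakdown of RNA in the cell. The Oas-like proteins Oasl1 and Oasl2 have the same fold, and Oasl1 is known as an inhibitor of Irf7 translation. Rsad2 encodes viperin, a radical enzyme that makes a chain-terminating nucleotide. The genes are switched on through the interferon receptor and a complex of transcription factors that binds an interferon-stimulated response element in their promoters. Monocytes, neutrophils and dendritic cells of the bone marrow are known to express them, and stem cells keep some of them on without infection.

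In the RefSeq annotation of GRCm38.p6, the 4 Ifit genes lie close together on chromosome 19, between positions 34550550 (start of Ifit2) and 34650009 (end of Ifit1). The Oas genes lie in 2 places on chromosome 5. Oasl2 and Oasl1 span 114896926 to 114937911, and Oas2, Oas3 and Oas1a lie between 120730333 and 120907544. Rsad2 lies on chromosome 12 from 26442743 to 26456452. Promoter windows of 300 bases, from 250 before to 50 after a RefSeq gene start, were found for 9 of the 10 genes (10 windows, since Ifit2 has a pair). They were searched on both strands for the core of the response element, GAAA, any 2 bases and GAAA again, which reads TTTC, any 2 bases and TTTC on the other strand. Of the members' windows, 6 of 10 held a match (60%), against 1131 of 32851 windows of all genes (3.44%) and 7 of 25 windows (28%) of 19 other interferon-stimulated genes. The windows of Ifit1, Ifit3, Ifit3b and Oas1a held 2 matches each, and those of Oas3 and Rsad2 held 1. Neither window of Ifit2, nor those of Oasl1 and Oasl2, held these letters. The 5 windows below are shown because they carry the motif in the genes with some of the highest and the lowest ratios between libraries. Matches are in capitals, each window is written along the gene's own strand, and the 2 matches of Oas1a overlap.
Ifit1, chr19:34640639-34640938, plus strand: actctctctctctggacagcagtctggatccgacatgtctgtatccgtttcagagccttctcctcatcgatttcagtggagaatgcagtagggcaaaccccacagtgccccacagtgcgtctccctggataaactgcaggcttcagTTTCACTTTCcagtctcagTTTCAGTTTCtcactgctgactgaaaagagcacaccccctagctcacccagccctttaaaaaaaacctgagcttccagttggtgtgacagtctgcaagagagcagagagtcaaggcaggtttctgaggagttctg
Ifit3, chr19:34583279-34583578, plus strand: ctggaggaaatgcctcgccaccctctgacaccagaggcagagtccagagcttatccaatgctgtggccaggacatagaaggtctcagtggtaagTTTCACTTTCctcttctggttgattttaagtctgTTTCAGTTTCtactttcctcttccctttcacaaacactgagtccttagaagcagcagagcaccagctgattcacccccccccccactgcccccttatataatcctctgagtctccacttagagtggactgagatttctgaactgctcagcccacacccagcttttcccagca
Ifit3b, chr19:34607707-34608006, plus strand: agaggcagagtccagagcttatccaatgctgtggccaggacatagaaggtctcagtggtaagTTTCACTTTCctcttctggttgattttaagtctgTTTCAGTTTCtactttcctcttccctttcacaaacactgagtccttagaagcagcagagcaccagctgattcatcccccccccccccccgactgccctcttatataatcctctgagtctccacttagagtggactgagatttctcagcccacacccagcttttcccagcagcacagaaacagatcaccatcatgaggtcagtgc
Oas1a, chr5:120907476-120907775, minus strand: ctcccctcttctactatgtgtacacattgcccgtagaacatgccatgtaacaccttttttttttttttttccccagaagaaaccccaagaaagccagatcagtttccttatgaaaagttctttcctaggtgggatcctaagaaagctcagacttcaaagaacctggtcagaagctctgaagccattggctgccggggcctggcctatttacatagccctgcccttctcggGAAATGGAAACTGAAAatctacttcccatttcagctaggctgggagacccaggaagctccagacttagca
Rsad2, chr12:26456403-26456702, minus strand: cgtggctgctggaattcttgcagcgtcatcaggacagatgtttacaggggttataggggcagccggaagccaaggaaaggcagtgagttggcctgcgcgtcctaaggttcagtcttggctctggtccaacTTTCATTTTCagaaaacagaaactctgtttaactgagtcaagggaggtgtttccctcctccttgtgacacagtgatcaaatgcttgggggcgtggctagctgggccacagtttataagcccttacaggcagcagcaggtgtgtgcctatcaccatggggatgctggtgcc
The Ifit3 and Ifit3b windows were identical at 258 of 260 aligned bases (99.2%). Their transcripts were also close copies, with 34 mismatches over 1697 aligned bases, but of 411 windows of 90 bases near the 3' end, 27 of Ifit3 (6.57%) and 0 of Ifit3b occurred unchanged in the other transcript. For Oas1a, whose transcript was 97.5% identical to that of Oas1g, 174 of 411 windows (42.3%) were shared, so reads of that pair can be assigned to either gene or dropped and its value is uncertain. A motif match describes these letters in this window and is not evidence of a bound factor.

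Cells were kept with 500 or more UMIs, 200 or more detected genes and under 10% mitochondrial UMIs, which left 5604 wild-type, 7957 heterozygous and 4318 homozygous cells. From here on, values given as triples follow that order of genotypes, unless named otherwise. Their median depths were 10058, 7658 and 9036.5 UMIs, and the libraries held 67141826, 72880881 and 46093025 UMIs in these cells. Pairs of libraries shared 21 to 26 cell barcodes, and no barcode was in all 3. Cells were put into classes by marker genes and are called "like" a cell type for that reason. Every marker of the stem and progenitor, granulocyte-monocyte progenitor, neutrophil, monocyte and conventional dendritic cell lists was detected in every library. The composition differed between libraries: monocyte-like cells made up 24.2%, 13.4% and 35.3% of cells, and mature neutrophil-like cells 3.82%, 20.4% and 4.49%. Cells that no class claimed made up 20.7%, 14.4% and 25.1%, and in the homozygous library they were shallow, with a median of 2209 UMIs and 6.17% mitochondrial UMIs. The libraries also differed in sex-linked RNA. Cells with Xist and without RNA of the Y-linked genes Ddx3y, Eif2s3y, Kdm5d and Uty numbered 5151 in the wild-type and 3636 in the homozygous library, whereas 4507 of the heterozygous cells had Y-linked RNA and no Xist. With 1 library per genotype, differences between genotypes and between these mice, pools and library preparations cannot be told apart. Intervals in this text cover counting error only and treat the UMIs of a cell as independent, no p-value was computed, and UMIs of cells are not replicates.

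Across all kept cells, the antiviral genes were several-fold higher in the homozygous library and close to the wild-type level in the heterozygous library. The 10 genes summed to 62.4 CPM (60.5 to 64.3) in wild-type cells, 66.7 CPM (64.8 to 68.6) in heterozygous cells and 211 CPM (207 to 215) in homozygous cells. The homozygous level was 3.38-fold the wild-type level (log2 ratio 1.76, 1.71 to 1.81) and 3.16-fold the heterozygous level (log2 ratio 1.66, 1.61 to 1.71). Among the members, 9 of 10 were at least 2-fold higher in the homozygous than in the wild-type library, where 4.18% of the 17034 genes with at least 20 UMIs were. The members' median log2 ratio was 2.19, and that of all tested genes was 0.06. Against the heterozygous library, 9 of 10 were again at least 2-fold higher (7.31% of all genes tested), with a median of 1.99 and an all-gene median of 0.22. Both knockout libraries were compared with the same wild-type library, so these comparisons share samples.

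The Ifit genes had the widest gaps. Ifit1, which recognises RNA lacking the host cap modification, stood at 1.37, 1.67 and 7.33 CPM, with a homozygous to wild-type log2 ratio of 2.42 (2.08 to 2.77). Without the cell of each library richest in Ifit1 that ratio was 2.76 (2.39 to 3.16). Ifit2, a partner of Ifit1 and Ifit3, stood at 4.10, 5.87 and 28.03 CPM (log2 ratio 2.77, 2.59 to 2.97). For Ifit3, which binds and stabilises other Ifit proteins, the levels were 1.41, 2.62 and 22.6 CPM (log2 ratio 3.999, 3.70 to 4.32). In each of these genes the homozygous interval lay above both of the others. Ifit3b, the close copy of Ifit3, had 11, 38 and 196 UMIs, or 0.164, 0.521 and 4.25 CPM (log2 ratio 4.70, 3.83 to 5.72). Summed over the 4 Ifit genes, the levels were 7.04, 10.7 and 62.2 CPM, and the last was 8.84-fold the wild-type level (8.01 to 9.76).

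The Oas genes started from a higher level and had smaller ratios. Oas1a, an oligoadenylate synthetase, stood at 15.5, 12.4 and 30.5 CPM. Its homozygous to wild-type ratio was 1.97-fold (1.81 to 2.13), so it was the 1 member under 2-fold in that comparison. Oas2, a synthetase with a doubled catalytic unit, stood at 8.89, 13.05 and 23.4 CPM (log2 ratio 1.39, 1.25 to 1.54). It was the 1 member under 2-fold between the homozygous and heterozygous libraries (1.79-fold, 1.64 to 1.956). Oas3, the longest synthetase, stood at 14.4, 13.8 and 32.6 CPM (log2 ratio 1.18, 1.06 to 1.30). The Oas-like genes lay further apart: Oasl1 stood at 6.46, 4.72 and 19.5 CPM (log2 ratio 1.59, 1.42 to 1.76). Oasl2 stood at 7.97, 8.22 and 31.6 CPM (log2 ratio 1.99, 1.85 to 2.13). The 5 Oas genes together were at 53.2, 52.2 and 138 CPM, a 2.59-fold ratio (2.48 to 2.70) whose interval lies below that of the Ifit sum. Rsad2 stood at 2.14, 3.81 and 11.2 CPM, with a log2 ratio of 2.38 (2.11 to 2.66), between the ratios of the Oas and the Ifit sums. Over all kept cells, Ifit2, Ifit3, Ifit3b, Oas2 and Rsad2 rose from wild-type to heterozygous to homozygous cells, with intervals that did not overlap. For Oas1a and Oasl1 the heterozygous library was the lowest. The class make-up differed between libraries, and these orders were not seen in every class. Without the richest cells, the heterozygous to wild-type log2 ratio of Oas2 was 1.04 (0.26 to 1.79) in stem and progenitor-like cells. In immature neutrophil-like cells it was -0.23 (-0.56 to 0.12).

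**Figure D1:**
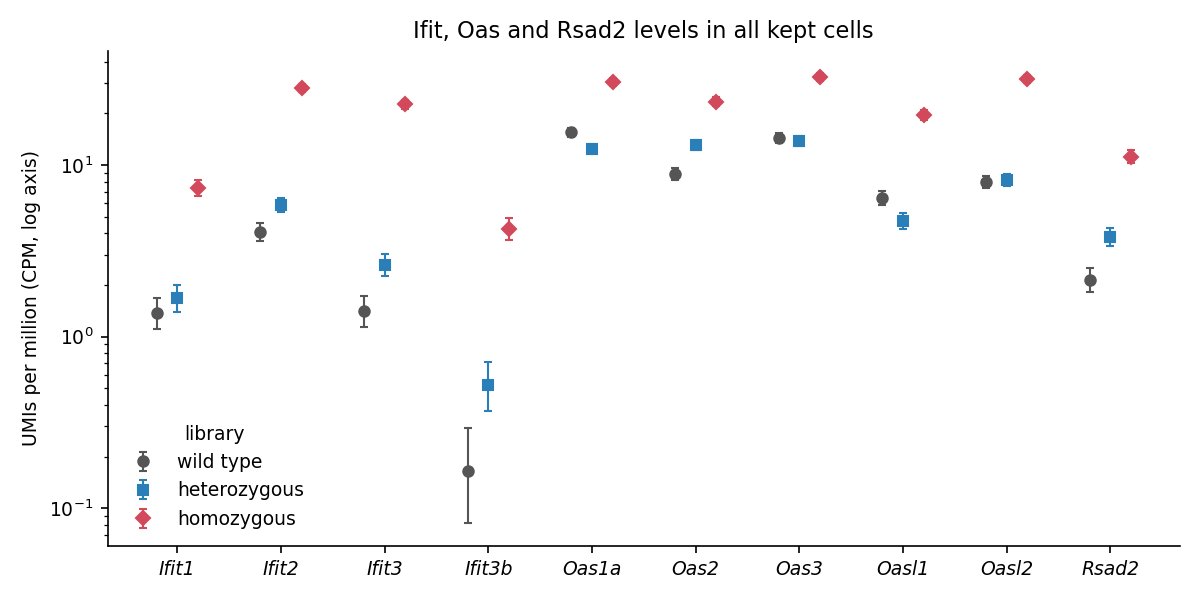
Level of each of the 10 genes in all kept cells of the wild-type, heterozygous and homozygous libraries, in CPM on a log axis; points are single libraries and bars are 95% counting intervals. The homozygous point is the highest for every gene, from 4.25 CPM for Ifit3b to 32.6 CPM for Oas3.

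The heterozygous and wild-type libraries differed little in the sum and in opposite directions by gene. The summed log2 ratio was 0.10 (0.04 to 0.16). It was -0.085 with equal weight for each named class that had at least 100 cells in every library. Of the 10 members, only Ifit3b was at least 2-fold higher in heterozygous cells (3.18-fold, 1.59 to 6.90), where 5.74% of 17412 genes tested were. No member was at least 2-fold lower, as 6.9% of genes were. The Ifit sum was 1.52-fold higher (1.35 to 1.70), and the Oas sum did not differ beyond counting error (0.981-fold, 0.937 to 1.03). Ifit2 (log2 ratio 0.52), Ifit3 (0.89), Oas2 (0.55) and Rsad2 (0.83) had intervals above 0. Oas1a (-0.33, -0.46 to -0.20) and Oasl1 (-0.45, -0.66 to -0.25) had intervals below 0. For Ifit1, Oas3 and Oasl2 the intervals included 0. Of the 92 wild-type Ifit1 UMIs, however, 22 came from 1 cell. Without the cell of each library richest in the gene, the Ifit1 ratio was 0.59 (0.14 to 1.04). The intervals of the other members then lay on the same side of 0 or included it, as before. The median log2 ratio of all genes was -0.14 in this comparison, and relative to it Oas1a was at -0.18 and Oas3 turned from -0.06 to 0.09.

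**Figure D2:**
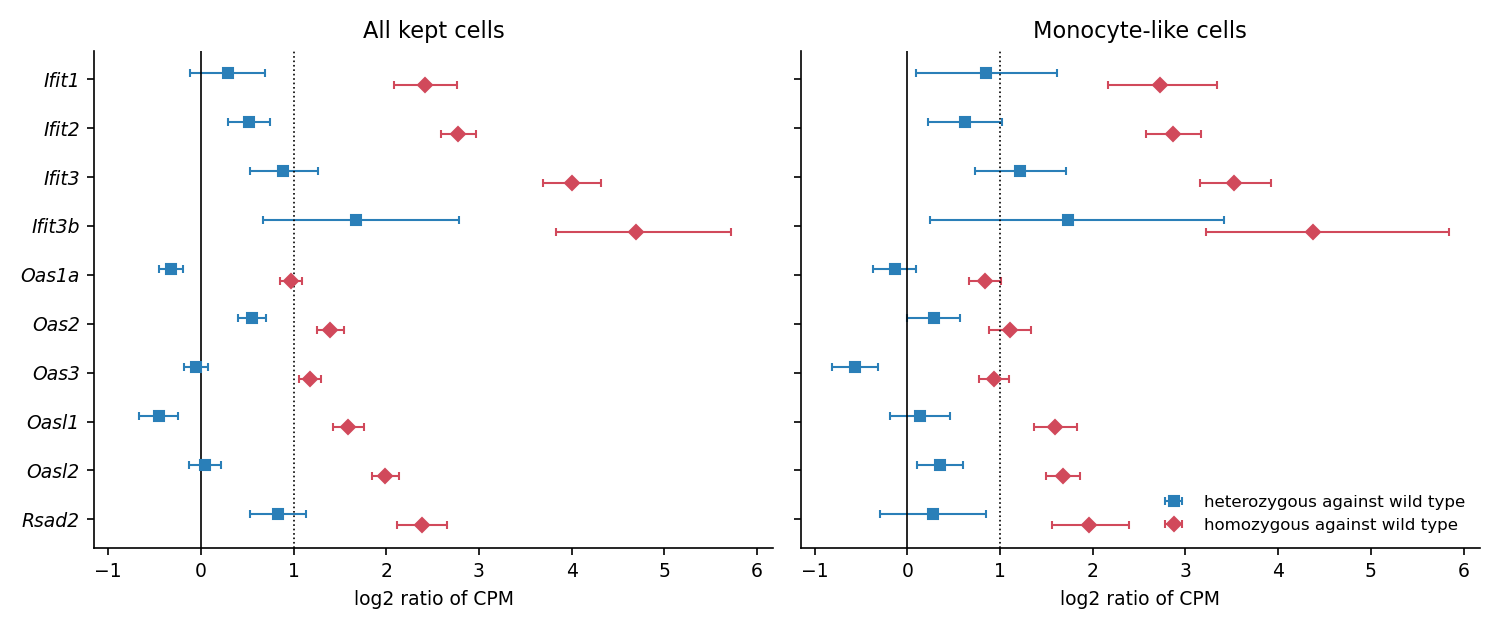
Log2 ratio of CPM for each gene, heterozygous against wild type and homozygous against wild type, in all kept cells and in monocyte-like cells; bars are 95% counting intervals, the solid line marks 0 and the dotted line marks 2-fold. In both panels the 4 Ifit genes have the highest homozygous ratios and Oas1a the lowest, 0.98 in all kept cells and 0.84 in monocyte-like cells.

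By class, the summed level was highest in the conventional dendritic, monocyte and mature neutrophil-like cells of each library and lowest in the granulocyte-monocyte progenitor-like cells. The progenitor-like cells stood at 26.9, 24.5 and 51.99 CPM. Stem and progenitor-like cells stood at 50.4, 53.9 and 75.5 CPM, and immature neutrophil-like cells at 43.5, 43.0 and 77.5 CPM. In these less mature classes the wild-type and heterozygous intervals overlapped, and the homozygous level was higher by log2 ratios of 0.95 (0.79 to 1.11), 0.58 (0.22 to 0.93) and 0.83 (0.59 to 1.07). Mature neutrophil-like cells stood at 129, 96.6 and 357 CPM, with a homozygous to wild-type log2 ratio of 1.47 (1.21 to 1.74). Monocyte-like cells stood at 120, 130 and 368 CPM (log2 ratio 1.62, 1.54 to 1.69). Conventional dendritic-like cells, of which there were 89, 403 and 78, held 261 CPM (222 to 304), 203 CPM (188 to 220) and 715 CPM (646 to 789). The homozygous library was the highest in each of the 6 classes, and in every class its interval lay above that of the wild type. Equal weight was also given to each named class with at least 100 cells in every library, which left out conventional dendritic-like cells. The homozygous to wild-type log2 ratio was then 1.33, beside 1.76 over all kept cells.

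**Figure D3:**
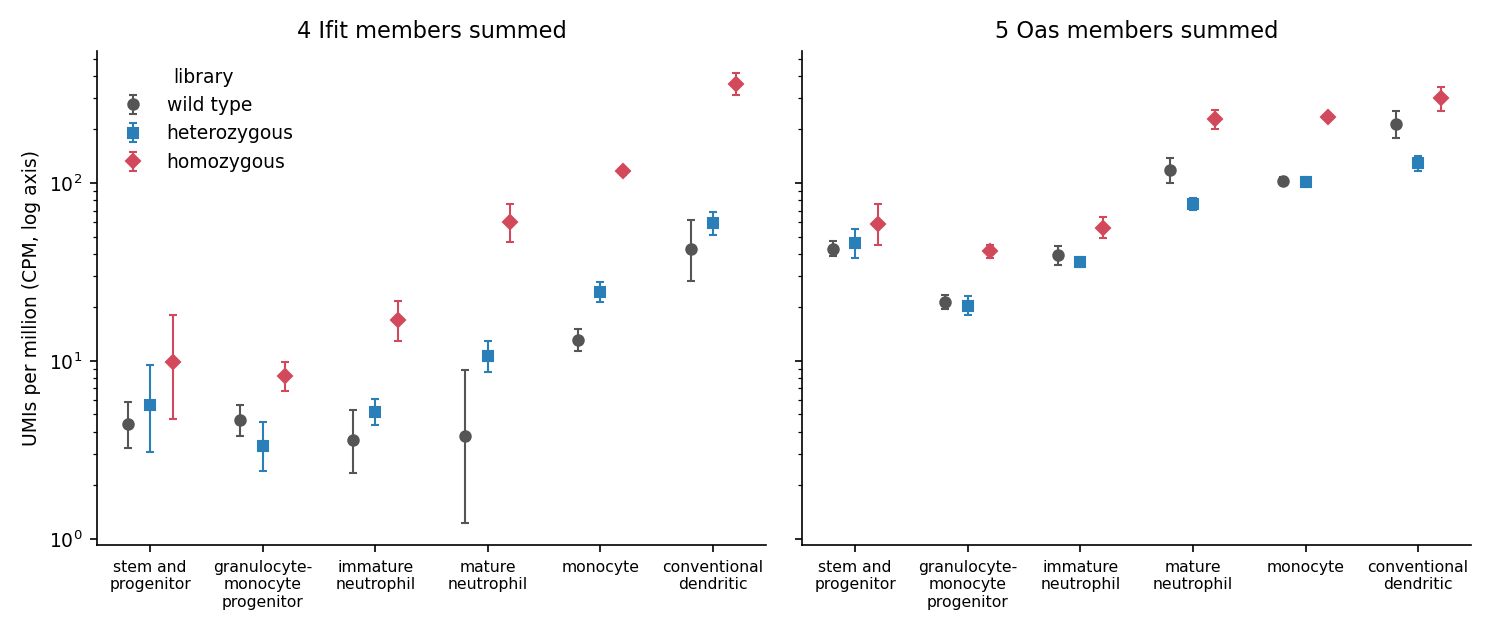
Summed level of the 4 Ifit genes (left) and the 5 Oas genes (right) in 6 marker-gated classes of the wild-type, heterozygous and homozygous libraries, in CPM on a log axis with 95% counting intervals. In monocyte-like cells the Ifit sum reads 13.1, 24.4 and 116 CPM and the Oas sum 103, 101 and 236 CPM.

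Markers of other cell types also differed between the libraries within the monocyte-like class. The 9 immature neutrophil markers summed to 4752, 3236 and 1796 CPM, the 8 mature neutrophil markers to 1320, 1363 and 606 CPM, and all of them were detected in each library. The 10 conventional dendritic cell markers summed to 91.9, 229.9 and 103.9 CPM, with Ciita at 0 in the wild-type cells, and the 9 monocyte markers to 4863, 5562 and 6152 CPM. Their part in the members' differences was not tested.

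Monocyte-like cells held the largest class share of summed member UMIs in each library, at 44.4%, 27.0% and 71.2%. Their leading genes beside Fn1 and Ccr2 included Ifi27l2a, Ifi204 and Ifi207, which interferon also induces. There, 8 of 10 members were at least 2-fold higher in the homozygous than in the wild-type library, against 4.72% of 13721 genes tested, and all 10 intervals lay above 0. Ifit3 stood at 3.94, 9.14 and 45.4 CPM in this class (log2 ratio 3.53, 3.15 to 3.93). Ifit2 stood at 6.90, 10.6 and 50.2 CPM (2.86, 2.57 to 3.16), and Ifit1 at 1.87, 3.38 and 12.4 CPM (2.73, 2.17 to 3.34). Rsad2 stood at 3.94, 4.77 and 15.4 CPM (1.964, 1.56 to 2.39). Oas1a and Oas3 were the members under 2-fold, at log2 ratios of 0.84 (0.67 to 1.01) and 0.94 (0.78 to 1.10). Oas3 was also the 1 member that was lower in heterozygous than in wild-type monocyte-like cells beyond counting error (19.5 against 28.8 CPM, log2 ratio -0.57, -0.82 to -0.32). All 4 Ifit genes and Oasl2 were higher there in heterozygous cells, with Ifit ratios from 0.62 to 1.74. Without the cell of each library richest in the gene, Ifit3 (1.06, 0.54 to 1.58) and Oasl2 (0.34, 0.09 to 0.59) kept intervals above 0, and Ifit1 (0.74, -0.12 to 1.60), Ifit2 (0.36, -0.08 to 0.79) and Ifit3b (1.79, -0.05 to 3.94) did not. In all, 1 of 9 members with enough UMIs was at least 2-fold higher, Ifit3, against 2.88% of all genes tested. A single heterozygous cell held 66 of the 1311 member UMIs of the class, and without the cell richest in member UMIs of each library the summed log2 ratio was 0.06 (-0.04 to 0.17) in place of 0.12 (0.02 to 0.22).

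Homozygous mature neutrophil-like cells held much Rsad2 RNA. The gene stood at 6.81, 9.66 and 68.9 CPM, from 9, 90 and 79 UMIs, a homozygous to wild-type log2 ratio of 3.34 (2.34 to 4.52). Without the cell richest in Rsad2 of each library the ratio was 3.51, so it did not rest on 1 cell. Oas3 stood at 59.1, 27.5 and 88.1 CPM, and it was lower in the heterozygous than in the wild-type library (log2 ratio -1.10, -1.47 to -0.72). The Ifit genes had 5 UMIs in all in the 214 wild-type cells of this class and 69 in the 194 homozygous cells. Ifit3b was at 0 UMIs in the wild-type cells. The level of the 11 homozygous UMIs was 4.22-fold that of 3 wild-type UMIs, counting error aside. Without the cell of each library richest in Ifit3b, the lower bound of the log2 ratio was 0.98. In this class 6 of the 8 members with enough UMIs were at least 2-fold higher in the homozygous than in the wild-type library, against 2.34% of 7772 genes tested.

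The less mature classes held fewer member UMIs per cell. Among granulocyte-monocyte progenitor-like cells, Oas2 was the gene with the best-measured gap, at 3.87, 4.61 and 13.5 CPM (log2 ratio 1.81, 1.42 to 2.20). Ifit3 had 3 UMIs in 1169 wild-type cells and 29 in 931 homozygous cells (log2 ratio 3.77, 2.08 to 6.13). Rsad2 stood at 0.735, 0.715 and 2.55 CPM (log2 ratio 1.80, 0.90 to 2.77). Ifit1 was lower in the homozygous cells (log2 ratio -1.23), but 22 of the 33 wild-type UMIs came from 1 cell, and the other 1168 wild-type cells held 0.539 CPM against 0.691 CPM in all homozygous cells. Here 4 of 9 members with enough UMIs were at least 2-fold higher and 1, Ifit1, was at least 2-fold lower, against 2.55% and 4.41% of all genes tested. Stem and progenitor-like cells had only 77 member UMIs in 110 homozygous cells, and the intervals of Oas2 (log2 ratio 1.26, 0.22 to 2.19) and Oasl2 (1.08, 0.17 to 1.89) alone lay above 0. Without the richest cell of each library both included 0, at 1.13 (-0.02 to 2.13) for Oas2 and 0.88 (-0.14 to 1.78) for Oasl2. Rsad2, of whose 34 wild-type UMIs 14 came from 1 cell, then stood at 1.65 (0.04 to 3.01). Oas2 was also higher in the heterozygous cells of that class (1.09, 0.36 to 1.80), while Oas1a and Oas3 were each at 11.6 CPM in the wild-type cells and at 11.3 CPM in the heterozygous ones. The homozygous cells held 8 Oas1a and 13 Oas3 UMIs. Without the richest cells, their homozygous to wild-type log2 ratios were -0.71 (-2.06 to 0.37) and 0.10 (-0.90 to 0.95). The list had 4 of 7 members at least 2-fold higher in homozygous stem and progenitor-like cells, against 5.79% of all genes tested, and for Ifit2 and Rsad2 of these 4 the interval included 0. In immature neutrophil-like cells Rsad2 had 5, 48 and 16 UMIs (homozygous to wild-type log2 ratio 2.60, 1.08 to 4.40). Of the Oas genes, Oas3 (0.74, 0.26 to 1.23) and Oasl1 (1.57, 0.07 to 3.18, from 7 and 11 UMIs) had intervals above 0 there. In that class 2 of the 5 members with enough UMIs were at least 2-fold higher, against 2.04% of genes tested.

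Conventional dendritic-like cells held the most member RNA per UMI, and the wild-type and homozygous libraries had under 100 of them, so their genes are given as levels with no ratio. Ifit3 stood at 7.90 CPM (2.56 to 18.4), 17.99 CPM (13.6 to 23.4) and 132 CPM (104 to 166). Ifit2 stood at 25.3, 28.9 and 156 CPM, and Rsad2 at 4.74, 14.8 and 56.1 CPM. Of the 46 heterozygous Rsad2 UMIs 22 came from 1 cell, without which the level was 7.74 CPM. Oas2 stood at 45.8, 22.5 and 47.1 CPM, with overlapping wild-type and homozygous intervals. A single heterozygous cell of this class held 80 of its 632 member UMIs, and a single homozygous cell held 61 of 395.

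T-like cells were too few for ratios, with 15 wild-type, 16 heterozygous and 21 homozygous cells. Their leading genes included Ccl5 and Xcl1, chemokines of cytotoxic lymphocytes, beside the T cell genes Cd3g and Trbc2. They held 7, 6 and 22 member UMIs, or 67.0 CPM (26.9 to 138), 44.7 CPM (16.4 to 97.4) and 118 CPM (73.7 to 178), and these intervals overlapped. Oas UMIs numbered 0, 4 and 14. A difference between genotypes in the summed members of T-like cells was therefore not detectable at this depth. For the Oas sum, the wild-type upper bound of 35.3 CPM lay below the homozygous lower bound of 40.9 CPM. At least 3 of the 14 homozygous Oas UMIs came from 1 cell, and the bound without that cell was not computed. No T-like cell was high in the sense used next, and at a limit of 3 cells the zeros allow shares of up to 20%, 18.8% and 14.3%. Natural killer-like cells numbered 8, 0 and 7 and were not described further.

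Cells rich in member UMIs were counted separately. A cell was called high when it held at least 3 member UMIs and at least 1000 CPM of the 10 genes. There were 37 high wild-type cells (0.660%, 0.465 to 0.909), 52 high heterozygous cells (0.654%, 0.488 to 0.856) and 263 high homozygous cells (6.09%, 5.40 to 6.85). The homozygous share was 5.43 percentage points above the wild-type share (4.71 to 6.21), and the heterozygous share differed by -0.0067 points (-0.30 to 0.26). The class is a range and not a cell type: 36, 48 and 153 cells lay between 800 and 1200 CPM. In the homozygous library 202 of the 263 high cells were monocyte-like (76.8%). Monocyte-like cells were high in 1.48%, 1.59% and 13.3% of cases, mature neutrophil-like cells in 1.40%, 0.925% and 8.76%, and conventional dendritic-like cells in 4.49%, 2.98% and 24.4%. Among granulocyte-monocyte progenitor-like cells 1, 0 and 0 were high. A homozygous monocyte-like high cell held a median of 14 member UMIs from 6 of the 10 genes, and its median depth of 8618.5 UMIs was below the 11437 of the other homozygous monocyte-like cells. The limit of 1000 CPM divides by the depth of a cell and so favours shallow cells, which bears on this difference in depth. High cells carried 40.7% of all member UMIs of the homozygous library, against 10.01% and 15.3% in the others.

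**Figure D4:**
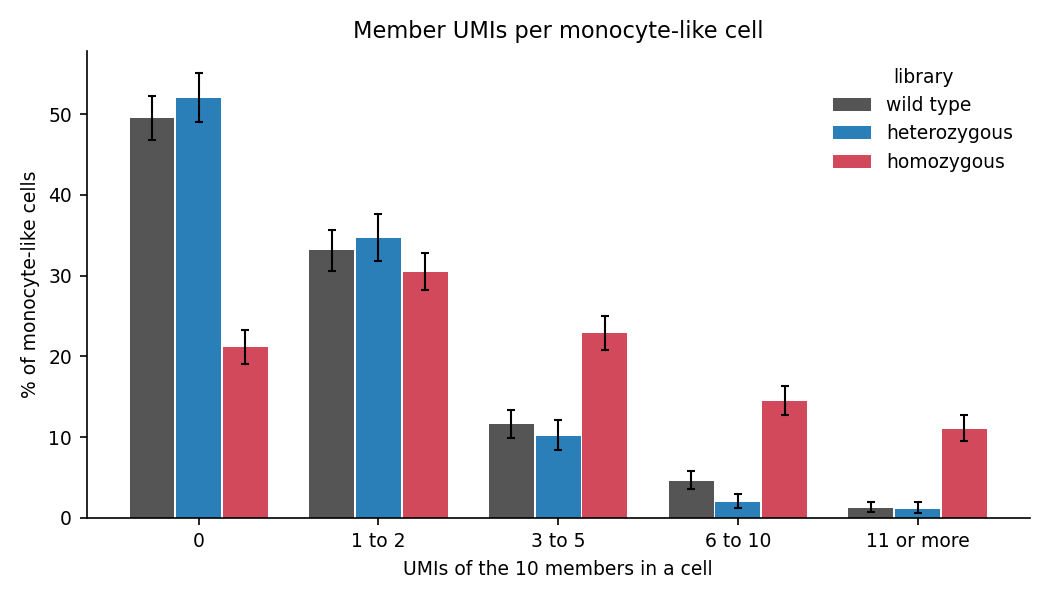
Share of monocyte-like cells by the number of UMIs of the 10 genes in a cell, for the wild-type (1355 cells), heterozygous (1066) and homozygous (1523) libraries; bars are percentages and error bars 95% binomial intervals. Cells with no member UMI stand at 49.5%, 52.1% and 21.1%, and cells with 11 or more UMIs at 1.18%, 1.13% and 11.03%.

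Because depth differed between libraries, shares of cells with a UMI were also read after each cell was thinned to 2000 UMIs, which left out 19, 27 and 48 monocyte-like cells. A member UMI was then found in 18.6% (16.6 to 20.8), 20.1% (17.7 to 22.7) and 42.6% (40.1 to 45.2) of the thinned cells. Without thinning the shares were 50.5%, 47.9% and 78.9%, at median depths of 10143, 8702 and 10887 UMIs. No class is known to lack these genes, so the class with the lowest share stands in for background. Thinned granulocyte-monocyte progenitor-like cells had a member UMI in 5.09%, 4.55% and 10.5%, and the unthinned medians of that class were 15045, 14754 and 14120 UMIs. For single genes in thinned monocyte-like cells, Ifit3 was found in 0.823%, 1.64% and 7.80% of cells and Oasl2 in 3.74%, 5.49% and 14.2%. Ifit3 was often found together with other members. Of 115 thinned homozygous monocyte-like cells with Ifit3, 84.3% held another member (76.4 to 90.5), against 37.4% of the 1360 without it (34.8 to 40.0). Among wild-type cells 72.7% of 11 with Ifit3 and 17.9% without it held another member, and among heterozygous cells 64.7% of 17 and 18.8% did. The gap was smaller for Oas3 in homozygous cells, at 58.6% of 181 cells with it and 34.6% of those without it. For Rsad2, cells with and without it had overlapping intervals in the wild-type (10 cells with it) and heterozygous (4 cells with it) libraries.

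The mix of members differed as well. The 4 Ifit genes made up 11.3% (10.4 to 12.3), 16.03% (15.0 to 17.1) and 29.5% (28.6 to 30.4) of all member UMIs. In monocyte-like cells the Ifit share was 10.9%, 18.8% and 31.6%, with intervals that did not overlap. In conventional dendritic-like cells it was 16.4%, 29.3% and 50.4%, also without overlap. Without the cell of each library richest in member UMIs, these shares were 16.9% (11.3 to 23.8), 27.2% (23.5 to 31.1) and 44.9% (39.5 to 50.4). The wild-type and heterozygous intervals of that class then overlapped. Mature neutrophil-like cells had Ifit shares of 2.94%, 11% and 16.9%, and immature neutrophil-like cells 8.28%, 12.1% and 21.8%. With the richest cells left out in the same way, the mature class stood at 2.53%, 8.49% and 17.6%. The immature class then stood at 7.80%, 11.4% and 16.8%, and its heterozygous (9.57 to 13.4) and homozygous (12.5 to 21.9) intervals overlapped. Among granulocyte-monocyte progenitor-like cells the share was 17.3%, 13.6% and 15.8%, and those intervals overlapped. A single wild-type cell held 27 of the 95 Ifit UMIs of that class, and without the cell of each library richest in member UMIs the shares were 13.2%, 13% and 14.7%. Within the homozygous library the share in monocyte-like cells (30.5 to 32.7) lay above that in granulocyte-monocyte progenitor-like cells (13.3 to 18.6), so the members' UMIs did not stand in a single ratio across classes. High cells had a larger Ifit share in every library: in monocyte-like cells it was 32.8%, 48% and 46.5% for high cells, beside 7.76%, 10.1% and 18.4% for the others. Here the number of member UMIs chose the high cells, so only their make-up is described.

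**Figure D5:**
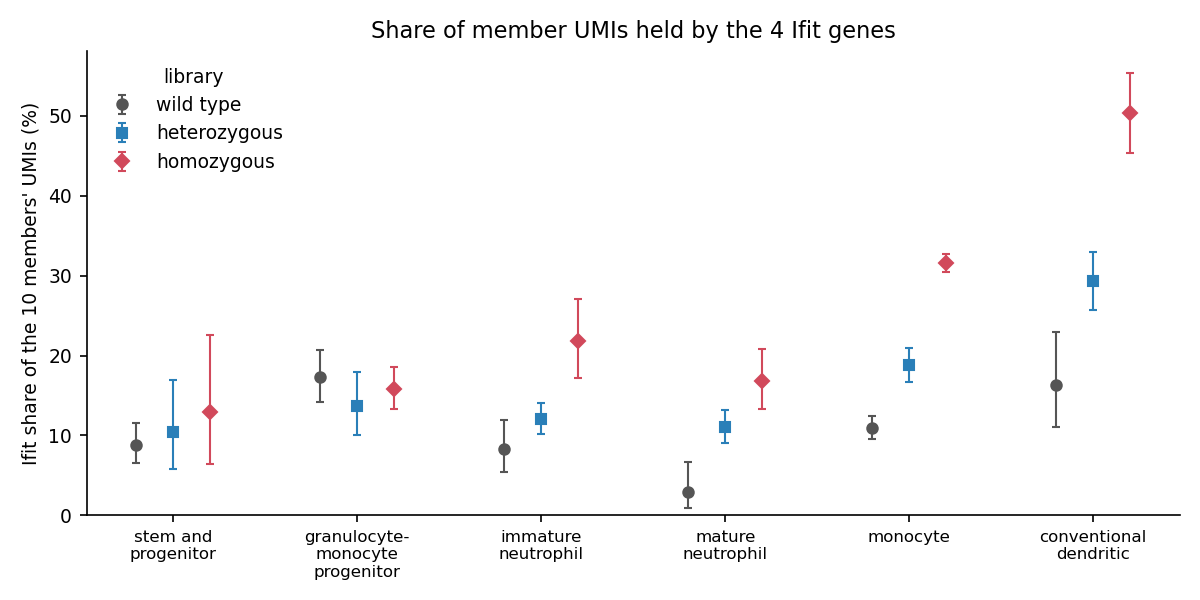
Share of the 10 genes' UMIs that came from the 4 Ifit genes, in percent, by marker-gated class and library, with 95% binomial intervals. The homozygous point is the highest in 5 of 6 classes, and in granulocyte-monocyte progenitor-like cells the 3 libraries overlap at 17.3%, 13.6% and 15.8%.

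The level was also read within cells sorted by sex-linked RNA, since the libraries differed in it. Among cells with Xist only, the 10 genes summed to 61.6, 83.01 and 211 CPM. Among cells with Y-linked RNA only, the sums were 47.1 CPM (74 cells), 62.1 CPM (4507 cells) and 217 CPM (142 cells). Cells with both kinds of RNA stood at 55.04, 54.8 and 117 CPM, and cells with neither at 127, 92.3 and 363 CPM. The homozygous library was the highest in each of the 4 sets, with log2 ratios to the wild type of 1.78 among Xist-only and 2.21 among Y-only cells. The heterozygous library exceeded the wild type in the Xist-only set (log2 ratio 0.43). In the Y-only set the ratio was 0.40, but the wild-type interval (31.8 to 67.2 CPM, from 30 UMIs) included the heterozygous level. The heterozygous library was level with the wild type among cells with both and lay below it among cells with neither. The part of sex-linked composition in the differences between libraries was not tested. In the heterozygous library the Xist-only and Y-only intervals did not overlap (77.5 to 88.8 and 59.8 to 64.5 CPM). These sets are not assigned to single mice.

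Among other genes of the pathway, those acting downstream of interferon were higher in the homozygous library. The interferon genes were nearly absent, apart from Ifng, which was sparse. Of 28 interferon-stimulated effectors and regulators outside the family, 27 had enough UMIs, all 27 were higher in the homozygous than in the wild-type library and 11 of them at least 2-fold, as 4.18% of all genes tested were. Their median log2 ratio was 0.86, below the 2.19 of the members and above the 0.06 of all genes. Isg15, a ubiquitin-like modifier, stood at 16.3, 21.3 and 62.96 CPM. Usp18, which removes it and dampens receptor signalling, stood at 6.51, 7.49 and 28.9 CPM, and Mx1, an antiviral GTPase, at 10.96, 8.74 and 36.3 CPM. Between the heterozygous and wild-type libraries 9 of the 27 were higher and 18 lower, with a median of -0.20 beside -0.14 for all genes, and Rtp4 alone was at least 2-fold higher (log2 ratio 1.14, 0.87 to 1.40), where 5.74% of all genes tested were. Of the cytosolic RNA sensors and their adaptor, 5 of 6 genes had enough UMIs, and Rigi alone was at least 2-fold higher in the homozygous library (8.76, 16.5 and 21.98 CPM). Among the signalling genes, Irf7 (31.5, 34.1 and 99.6 CPM) was at least 2-fold higher in homozygous cells, while Jak1 was lower (333, 435 and 257 CPM) and the receptor gene Ifnar2 was nearly level (346, 285 and 337 CPM). Of 8 interferon genes, 6 were at 0 UMIs in the wild-type and 7 in each knockout library. Ifnb1 had 2, 0 and 0 UMIs. Ifng had 60, 17 and 86 UMIs, or 0.894, 0.233 and 1.87 CPM. Its log2 ratio to the wild type was 1.06 (0.57 to 1.56) in the homozygous and -1.94 (-2.81 to -1.14) in the heterozygous library. Of 9 further Ifit and Oas genes at the same loci, 5 had enough UMIs and 3 of these were at least 2-fold higher in homozygous than in wild-type cells (median log2 ratio 1.23). Oas1g, the near copy of Oas1a, stood at 2.40, 2.94 and 5.62 CPM.

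Over 18 sums of cells, 1 per library and class with at least 50 cells, the genes whose log2 level followed the summed members most closely were Irf7 (Pearson correlation 0.985), Slfn8 (0.940), Shisa5 (0.939), Slfn5 (0.931), Isg15 (0.931), Parp9 (0.927), Rala (0.924), A930037H05Rik (0.922), Zbp1 (0.922) and Txnip (0.919). These were the 10 highest of 9931 genes compared. Irf7 ranged from 8.98 to 364 CPM over the sums. The sums share 3 libraries and their depth, and the correlations are given as a description with no test. Among the members themselves the correlation with the sum that includes them ran from 0.805 for Ifit3b to 0.933 for Oasl2.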

How the data were processed

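Bone marrow cells of 3 libraries, 1 per Fabp4 genotype, were profiled. The deposited values are UMI counts, integers with no normalization, for each barcode and gene. The authors made them with Cell Ranger 8.0.1 and STAR on mm10, per the submitters' processing notes, and the annotation release is not given in the sources used here. Matrices were read with Python 3.11.15, numpy 2.4.6, scipy 1.17.1, pandas 2.3.3, scanpy 1.11.5 and anndata 0.12.19, and plots were drawn with matplotlib 3.10.9. Barcodes with at least 500 UMIs and 200 genes, and under 10% mitochondrial UMIs, were kept.

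CPM is the sum of a gene's UMIs over the cells of a library or class, divided by all UMIs of those cells and multiplied by 1e+06. Intervals are 95% and exact for counts (Poisson), shares (Clopper-Pearson) and ratios (conditional), and Newcombe's for differences of shares. These bounds describe the counting error alone. Because a genotype has 1 library, no replicate check and no p-value is given. A gene entered a comparison with at least 20 UMIs in its 2 libraries together, and was called past 2-fold. A gene at 0 was set to 3 counts per class and library, and the fold against that level leaves counting error aside. Classes with under 100 cells in a library compared got no ratio. Settings with equal weight per class averaged the named classes with at least 100 cells in every library. They left out conventional dendritic-like cells, T-like cells and cells that no class claimed.

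Each cell was scored on marker lists (mean clipped z-score of log values per 10000 UMIs) and took the best class if the score reached 0.3, led the next by 0.1 and 3 markers were detected. Scrublet, run through scanpy, made 0, 251 and 0 automatic calls in the wild-type, heterozygous and homozygous libraries, so doublets were kept, and an alternative removed the top-scoring barcodes. The 10 members, the pathway lists (interferon-stimulated effectors, RNA sensors, signalling, ligands and other Ifit and Oas genes at the same loci), the class markers and the gate were chosen with earlier results of these data known. All members are named. From the pathway lists, examples are named, some results on them are not reported here, and the 10 genes most like the summed members were taken by Pearson correlation of log2(CPM + 1) over sums of at least 50 cells, among genes with at least 5 CPM on average, members left out. Promoter windows and gene positions are from RefSeq tables of GRCm38.p6, and transcripts were aligned with Biopython 1.88. The scripts were tested on simulated data. Alternatives changed the cell filter, gate, scaling, thinning, fold, minimum count and the treatment of doublets.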

Additional observations from a re-analysis of the deposited data

Results flagged for a closer look

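Ifit1 differed in direction between classes. Its homozygous to wild-type log2 ratio was 3.51 in immature neutrophil-like, 4.66 in mature neutrophil-like and 2.73 in monocyte-like cells, and -1.23 in granulocyte-monocyte progenitor-like cells, with intervals on opposite sides of 0. The wild-type values of both neutrophil classes rest on 2 UMIs and 1 UMI. In the progenitor-like class a single wild-type cell held 22 of 33 UMIs, and without each library's richest cell the log2 ratio was 0.04 (-1.48 to 1.49). The heterozygous to wild-type ratio of Ifit1 was 0.85 in monocyte-like and -2.76 in granulocyte-monocyte progenitor-like cells, where the heterozygous library held 3 UMIs, all in 1 cell. The 10 genes summed also went in opposite directions between the heterozygous and wild-type libraries, at 0.12 in monocyte-like and -0.41 in mature neutrophil-like cells. These differences between classes were not tested.

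The barcodes that the cell filter removed, which enter no comparison, held member UMIs above the level of the removed wild-type barcodes. Their summed level was 57.3 CPM in the heterozygous and 102 CPM in the homozygous library, beside 35.8 CPM in the wild type. Oas2 stood at 19.3 and 35.9 CPM in them, beside 7.97 CPM, and these Oas2 levels were above those of the kept cells of the same libraries (13.05 and 23.4 CPM).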

How the results depend on the processing

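No paired analysis was possible because each genotype has 1 library, so no replicate can be paired or left out. Of 321 recomputed values, 98 for comparisons of groups and 169 for single genes stayed within the counting interval or within 1.5 times the count, and 41 and 11 moved past it. The sign of the summed heterozygous to wild-type ratio changed under 2 settings. Single values near 0 in that comparison also crossed it, with ranges of -0.15 to 0.09 for Oas3, -0.11 to 0.19 for Oasl2 and -0.51 to 0.14 points for the share of high cells.

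The homozygous to wild-type summed log2 ratio (1.76) was 1.70 centred on all genes, 1.67 with equal weight per cell, 1.89 thinned, 1.33 with equal weight per class, 2.21 in cells with Y-linked RNA only and 1.22 without high cells, which the compared level itself chose. In monocyte-like cells (1.62) it was 1.52 centred, 1.79 with equal weight per cell and 1.82 thinned. The homozygous to heterozygous ratio (1.66) was 1.56 with no cell filter, 1.58 with mitochondrial shares up to 25%, 1.73 with mitochondrial, ribosomal and haemoglobin UMIs left out, 1.44 centred, 1.83 thinned, 1.42 with equal weight per class, 1.35 in Xist-only cells, 1.81 in Y-only cells and 1.21 without high cells.

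The heterozygous to wild-type ratio (0.10) was the least stable. It was 0.16 with no filter, -0.0032 with mitochondrial, ribosomal and haemoglobin UMIs left out, 0.24 centred, -0.085 with equal weight per class, 0.43 in Xist-only cells, 0.40 in Y-only cells and 0.0099 without high cells. Members past the fold in that comparison (1 of 10) numbered 2 centred, 3 at 1.5-fold, 0 at 4-fold and 0 with at least 50 UMIs. At 4-fold, 5 members passed in each comparison of the homozygous library.

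The homozygous excess of high cells over the wild type (5.43 points) was 3.14 with no filter, 6.93 with at least 1000 UMIs and under 5% mitochondrial UMIs, 3.50 at up to 25% mitochondrial UMIs, 10.2 at 500 CPM and 1.62 at 2000 CPM. Over the heterozygous library it was 3.04, 6.93, 3.43, 10.7 and 1.49 under the same settings. The heterozygous difference from the wild type was -0.51 at 500 CPM. The T-like homozygous level (118 CPM) was 214 CPM thinned, and the wild-type level (67.0 CPM) was 35.7 CPM thinned and ran from 35.7 to 87.9 CPM. Centring was not run for T-like cells, whose levels are no ratios. Settings on sex-linked RNA, on high cells and on the richest cells were chosen after seeing the data. The depth limits single members in the stem and progenitor-like and T-like cells, where most have under 20 UMIs in each knockout library.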
